A study of Mus musculus with 6 samples.

Results

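The melanocyte genes described here are 7 genes that mark pigment cells, namely Sox10, Mitf, Tyr, Tyrp1, Dct, Pmel and Mlana. They were chosen by gene symbol, and all 7 were found among the 23358 gene entries counted in the tumors. RNA was sequenced from 6 spontaneous subcutaneous tumors of female mice, each from a different animal. Every mouse carried NT3, an allele of the kinase NIK without its TRAF3-binding domain. The allele lies in the ROSA26 locus behind a stop cassette that Cre recombinase removes. Tumors 13, 18 and 25 came from Osx-Cre;NT3 mice, in which Cre is driven by the osteolineage promoter of Osterix and was held off by doxycycline in the chow until weaning. All 3 grew on the trunk, with latencies of 150, 168 and 115 days. Tumors 27, 29 and 36 came from FSP1-Cre;NT3 mice, in which Cre is driven by the S100a4 promoter, active broadly in mesenchymal cells. Tumors 27 and 36 were perineal, tumor 29 was on the trunk, and the latencies were 101, 72 and 52 days in the order 27, 29 and 36. Line, latency, doxycycline and strain background therefore moved together and cannot be told apart, and site followed the line except in tumor 29. NT3 mice were kept on C57Bl/6J, Osx-Cre mice on mixed C57Bl/6J and CD1, and FSP1-Cre mice on FVB/n. FVB and CD1 are albino strains that carry a loss-of-function allele of Tyr. The mothers were homozygous NT3 mice and the fathers heterozygous Cre mice, so an FVB or CD1 allele could come from the father only. The Tyr genotype and coat color of each mouse were not given in the sources used here.

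Melanocytes arise from the neural crest and populate the hair follicles, and in some regions the epidermis, of the skin. Sox10, a neural crest transcription factor, activates Mitf, the master transcription factor of the lineage. Mitf in turn activates the enzymes of melanin synthesis, Tyr (tyrosinase, the rate-limiting step), Tyrp1 and Dct, and the melanosome proteins Pmel (the fibril protein) and Mlana (the antigen MART-1). Neither transcription factor is restricted to pigment cells. Mitf also acts in mast cells, macrophages and osteoclasts, and Sox10 in Schwann cells and in the epithelium of several glands. The study asked whether the tumors could be melanomas, which these genes would mark.

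The promoters are printed first, because Tyr and Tyrp1 share a promoter element yet differed in their pattern over the tumors. RefSeq windows of GRCm38.p6 were matched for 4 of the 7 genes, Tyr, Tyrp1, Dct and Mitf. Each run below is the 250 bases before the start of transcription, read 5′ to 3′ on the strand of the gene. Capitals mark AGTCATGTGCT in Tyr and Tyrp1, the 11 bases that both windows share around CATGTG, known as the M-box. In Dct they mark the shorter CATGTG, which lies within the M-box, on either strand, and in Mitf the cAMP response element TGACGTCA.
Tyr, chr7:87493513-87493762, minus strand: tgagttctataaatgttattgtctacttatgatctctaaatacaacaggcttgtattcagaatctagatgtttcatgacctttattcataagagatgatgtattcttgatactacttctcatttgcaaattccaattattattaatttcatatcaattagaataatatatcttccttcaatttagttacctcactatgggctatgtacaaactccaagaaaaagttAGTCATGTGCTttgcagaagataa
Tyrp1, chr4:80833963-80834212, plus strand: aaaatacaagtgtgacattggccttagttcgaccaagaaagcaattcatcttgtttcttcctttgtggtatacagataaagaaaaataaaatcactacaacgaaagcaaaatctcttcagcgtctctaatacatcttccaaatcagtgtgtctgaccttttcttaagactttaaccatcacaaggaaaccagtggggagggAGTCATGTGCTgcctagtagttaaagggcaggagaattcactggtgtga
Dct, chr14:118052247-118052496, minus strand: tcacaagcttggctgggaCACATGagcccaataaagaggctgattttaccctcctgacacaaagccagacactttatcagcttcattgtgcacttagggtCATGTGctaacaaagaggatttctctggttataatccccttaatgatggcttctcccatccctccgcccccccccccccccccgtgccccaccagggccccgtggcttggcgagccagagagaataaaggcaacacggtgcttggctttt
Mitf, most downstream of 3 starts, chr6:97991533-97991782, plus strand: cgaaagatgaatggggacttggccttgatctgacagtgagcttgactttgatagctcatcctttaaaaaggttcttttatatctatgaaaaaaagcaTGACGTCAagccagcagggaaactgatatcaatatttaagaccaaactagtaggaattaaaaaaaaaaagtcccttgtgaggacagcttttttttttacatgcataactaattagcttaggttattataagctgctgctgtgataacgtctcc

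All motifs were searched on both strands. The M-box, whose letters were taken from these windows, began 49 bases before the RefSeq start of Tyrp1 and 24 bases before that of Tyr. Both starts lie upstream of the counted entries, which begin at 80834230 for Tyrp1 and, on the minus strand, at 87493411 for Tyr. Of 32851 RefSeq windows of this length, 7 held the M-box (0.0213%). The windows with it included that of C1qb, a complement gene of macrophages that had from 210 to 497 CPM in these tumors. CATGTG occurred in Dct at 150 bases before the start on the plus sense of the gene and at 232 bases on the opposite strand, and 12.3% of all windows held it. TGACGTCA began 153 bases before the most downstream start of Mitf and was found in 1.55% of windows. That start belongs to the promoter melanocytes use, but the counts are per gene and do not separate the starts of Mitf. The matches describe these letters only, and binding was not measured.

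The authors deposited raw read counts per gene and RPKM values, which scale counts by gene length and library size. Total counts ranged from 51824408 in tumor 13 to 163297772 in tumor 18. Levels of 1 gene across tumors are given as CPM, that is counts relative to the TMM-adjusted size of each library, and levels of different genes are compared by RPKM. Every count was even, so counting intervals were computed on pairs of counts (exact Poisson, 95%) and cover counting error only. In 1 tumor, 3 counts correspond to from 0.0195 to 0.0621 CPM. The keratinocyte keratins Krt5, Krt14 and Krt15 had 1706 ± 543, 1451 ± 394 and 1066 ± 408 RPKM (SD, n = 6 tumors), whereas no melanocyte gene exceeded 7.51 RPKM in any tumor. These are bulk tumors, in which fewer cells of a type and less RNA per cell cannot be told apart.

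Compared per length, all 7 melanocyte genes were low in these tumors. Mlana had the highest mean RPKM, 3.53 ± 2.22 (SD, n = 6 tumors), on a listed length of 461 bases. Dct followed with 1.15 ± 1.84 RPKM, Mitf with 0.857 ± 0.380, Pmel with 0.839 ± 0.399 and Tyr with 0.498 ± 0.165. Tyrp1 had 0.396 ± 0.555 RPKM and Sox10 had the lowest mean, 0.187 ± 0.219. The place of Dct rested on tumor 18, without which its mean was 0.461 ± 0.807 RPKM (n = 5 tumors), below Mitf with 0.883 and Pmel with 0.695. The median of the entries that passed the filter for testing between the lines was 5.27 RPKM, above each of these means. Of all 23358 entries, including those not tested, from 34.0% for Sox10 to 58.8% for Mlana had a lower mean. Apart from the step from Mlana to Dct, each gene differed from the next in this order by less than the larger of their SDs.

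**Figure D1:**
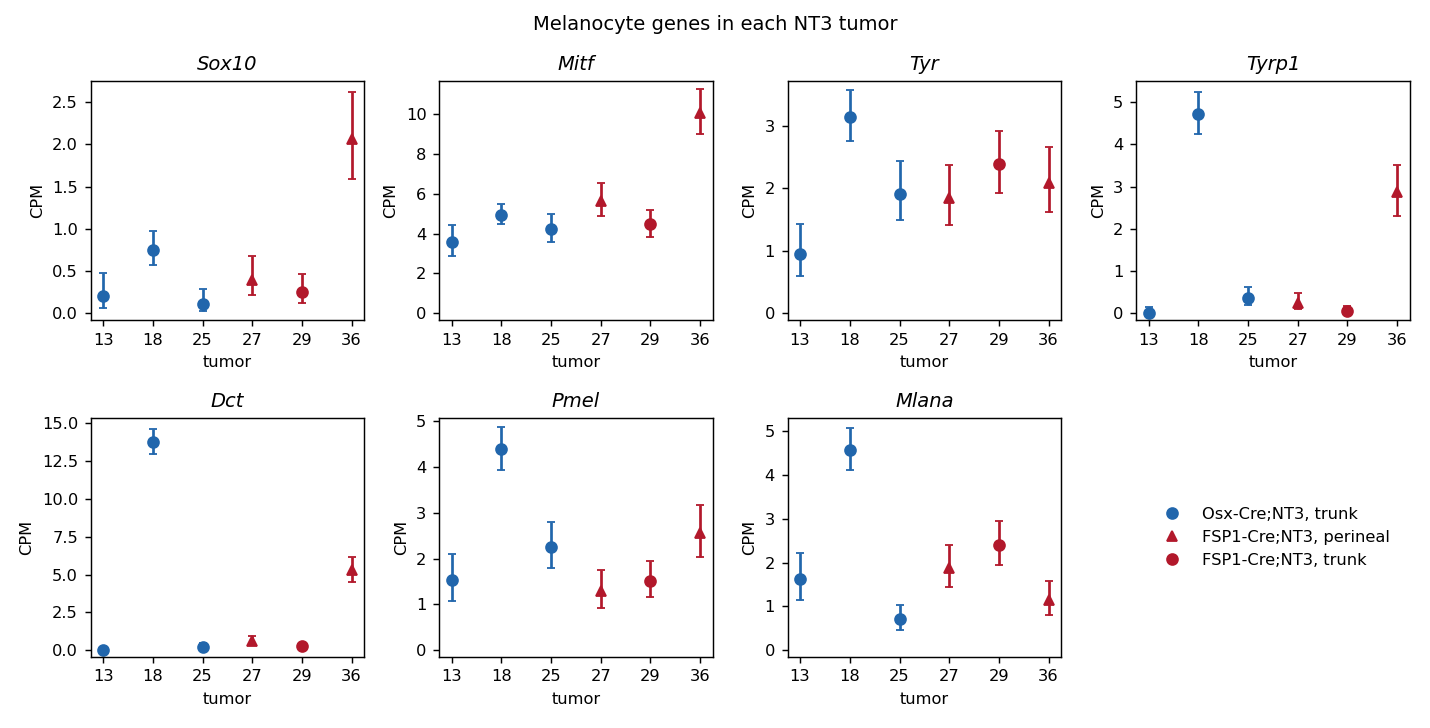
CPM (y axis, linear, its own scale for each gene) of the 7 melanocyte genes in the 6 tumors (x axis, mouse number), in blue for Osx-Cre;NT3, red for FSP1-Cre;NT3, circles for trunk and triangles for perineal, with bars for the exact 95% Poisson interval on pairs of counts. Tyrp1 and Dct were high in tumors 18 and 36 and under 1 CPM in the other 4, while Tyr, Pmel, Mlana and Mitf were above 0.7 CPM in every tumor.

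Of the 2 transcription factors, Mitf was detected in every tumor and varied less than Sox10. It lies on chromosome 6 (97807058 to 98021358, mm10) and had 3.60, 4.95 and 4.22 CPM in Osx-Cre;NT3 tumors 13, 18 and 25, and 5.65, 4.49 and 10.1 CPM in FSP1-Cre;NT3 tumors 27, 29 and 36. Tumor 36 was the highest and exceeded the lowest tumor 2.80-fold, and the lines overlapped. Both perineal tumors, 27 and 36, were above all 4 trunk tumors. Sox10 (chromosome 15, 79154913 to 79164490) had 0.207, 0.753 and 0.113 CPM in tumors 13, 18 and 25, and 0.399, 0.256 and 2.06 CPM in tumors 27, 29 and 36. The values of Sox10 rest on from 8 to 132 counts, and tumors 36 and 18 were the highest. The fold between its highest and lowest tumor was 18.3.

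Tyr, the enzyme of the first step, varied less among the tumors than Tyrp1 and Dct. It lies on chromosome 7 (87427405 to 87493411) and had 0.952, 3.14 and 1.91 CPM in tumors 13, 18 and 25, and 1.84, 2.39 and 2.09 CPM in tumors 27, 29 and 36. Tumor 18 was the highest and tumor 13 the lowest, 3.30-fold apart, and the FSP1-Cre;NT3 tumors fell between them.

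Tyrp1 and Dct, which act after tyrosinase, instead were high in 1 tumor of each line. Tyrp1 (chromosome 4, 80834230 to 80851718) had 0, 4.73 and 0.366 CPM in tumors 13, 18 and 25, and 0.246, 0.0513 and 2.87 CPM in tumors 27, 29 and 36. Dct (chromosome 14, 118012790 to 118052246) had 0, 13.8 and 0.225 CPM in tumors 13, 18 and 25, and 0.614, 0.256 and 5.30 CPM in tumors 27, 29 and 36. In both genes tumor 18 was the highest, tumor 36 the next and tumor 13 had no count. Dct rested on 2122 counts in tumor 18 and 340 in tumor 36, with intervals of 13.0 to 14.6 CPM and 4.53 to 6.16 CPM, and on at most 40 counts elsewhere. Tyrp1 had 728 counts in tumor 18, 184 in tumor 36 and at most 26 elsewhere. At the levels of the other 5 tumors, from 10.9 to 666 counts of Dct would be expected in the library of tumor 13. For Tyrp1 the range was 2.48 to 228, so its absence from tumor 13 was not distinguishable from the level of tumor 29 at this depth. The count of 0 allows up to 0.153 CPM by the interval on pairs. That range overlaps the intervals of Dct in tumors 25 and 29 and of Tyrp1 in tumors 27 and 29.

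The melanosome proteins followed neither pattern closely. Pmel (chromosome 10, 128706258 to 128720238) had 1.53, 4.39 and 2.25 CPM in tumors 13, 18 and 25, and 1.29, 1.51 and 2.56 CPM in tumors 27, 29 and 36. Its interval overlaps that of Dgka by 103 bases, and Dgka had from 63.6 to 84.7 CPM, so reads in the overlap could have been assigned to either gene or dropped. Mlana (chromosome 19, 29697941 to 29708306) had 1.61, 4.57 and 0.704 CPM in tumors 13, 18 and 25, and 1.87, 2.41 and 1.15 CPM in tumors 27, 29 and 36. Both genes were highest in tumor 18. Tumor 36 was next highest for Pmel but was above tumor 25 alone for Mlana.

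The tumors therefore differed in the makeup of the melanocyte transcripts as well as in their sum. In CPM, the 7 genes together had 7.91, 36.3 and 9.80 CPM in tumors 13, 18 and 25, and 11.9, 11.4 and 26.1 CPM in tumors 27, 29 and 36. By RPKM, Tyrp1 and Dct made up 35.6% of the sum of the 7 genes in tumor 18 and 32.6% in tumor 36, against 0% in tumor 13, 5.50% in tumor 25, 5.30% in tumor 27 and 1.70% in tumor 29. On the same scale Dct was 6.41 times Tyr in tumor 18 and 3.71 times in tumor 36, and at most 0.487 times in the others. Mitf made up 4.35% of the summed RPKM in tumor 18 and from 11.2% to 19.2% in the others. Tumor 18 had the deepest library, and tumor 36 had 64614258 counts, against a median of 67419536. The part of depth was not tested.

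**Figure D2:**
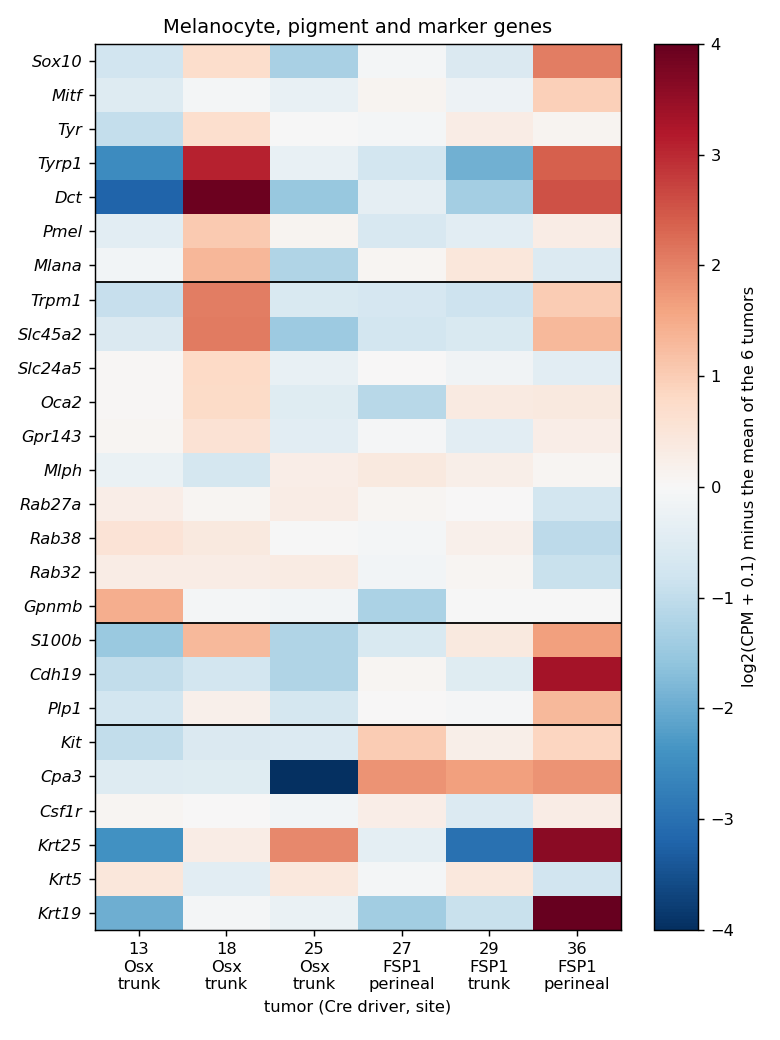
Log2(CPM + 0.1) of each gene (rows) minus its mean over the 6 tumors (columns, with Cre driver and site), with lines between melanocyte genes, melanosome genes, Schwann cell genes and markers of mast cells, macrophages, hair follicle and epithelium. The color scale ends at 4 in either direction; tumors 18 and 36 are red for Tyrp1, Dct, Trpm1 and Slc45a2, while Rab32 and Rab38 are blue in tumor 36.

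Between the lines, no melanocyte gene differed beyond the spread among tumors. Of the 7 genes, 0 passed an adjusted p of 0.05 in either direction (edgeR's quasi-likelihood test, Benjamini-Hochberg over 16415 genes), where 0% of all genes tested passed and 10.8% had an unadjusted p under 0.05. None of the 7 had an unadjusted p under 0.05, and DESeq2, which called 2.56% of genes, called 0 of them. DESeq2 gave no p for Dct. The largest estimate was Sox10, with a log2 fold change of 1.31 in FSP1-Cre;NT3 relative to Osx-Cre;NT3 (SE 1.03, edgeR adjusted p = 0.601). Mitf had 0.66 (SE 0.40, edgeR adjusted p = 0.504) and Tyr 0.07 (SE 0.50, edgeR adjusted p = 0.960). The estimates were below 0 for Dct (-1.19, SE 2.04), Tyrp1 (-0.70, SE 1.90), Pmel (-0.61, SE 0.53) and Mlana (-0.34, SE 0.71). The standard errors of Dct and Tyrp1 were the widest, and each line held 1 high tumor. The groups of CPM overlapped for all 7 genes, where 9.02% of all genes tested were higher in every FSP1-Cre;NT3 tumor and 8.02% lower. The median log2 fold change was -0.34 over the 7 genes and 0.01 over all genes tested, and it was 0.13 over all genes with library sizes alone.

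Without tumor 18 the estimate for Dct turned to 4.10 and that for Tyrp1 to 2.46. Without tumors 18 and 36, a choice made after the data had been seen, Dct had 1.84 (SE 1.31, edgeR adjusted p = 0.861) and again 0 of the 7 genes passed.

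Between the sites, 0 of the 7 genes passed in either direction for perineal over trunk tumors, where 0% of the 16971 genes tested passed with edgeR and 10.5% had an unadjusted p under 0.05. Mitf had a log2 fold change of 0.86 (SE 0.36, edgeR adjusted p = 0.473) and an unadjusted edgeR p of 0.0474. Without tumor 36 the estimate was 0.39 (SE 0.42). It was also the 1 gene of 7 whose perineal and trunk values did not overlap, where 10.2% of all genes tested were higher in both perineal tumors than in every trunk tumor and 9.44% lower. Sox10 had 1.85 (SE 0.91, edgeR adjusted p = 0.530), which fell to 0.24 without tumor 36. Tyrp1 had 0.26 (SE 1.96), Tyr -0.10 (SE 0.55), Dct -0.28 (SE 2.15), Pmel -0.34 (SE 0.61) and Mlana -0.62 (SE 0.75). DESeq2, which called 3.56% of genes, called 0 of the 7 and gave no p for Tyrp1 and Dct. Without tumor 18 the estimate for Dct was 4.14 (SE 1.36), with an adjusted p of 0.390 by edgeR. Within the FSP1-Cre;NT3 line alone, 2 perineal tumors against 1, it was 3.50 (SE 1.89).

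**Figure D3:**
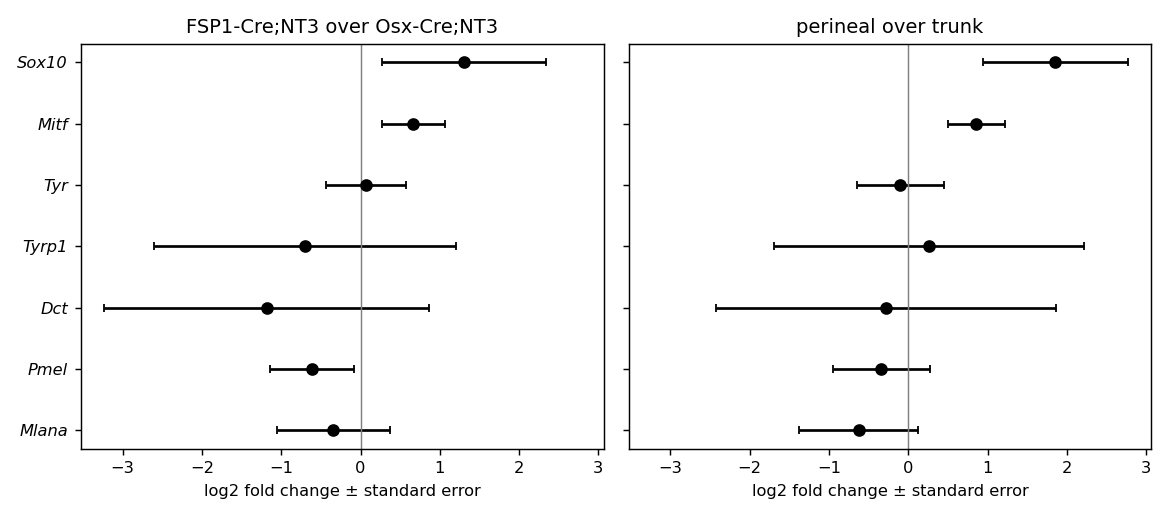
Log2 fold change (x axis) of the 7 melanocyte genes between the lines (left, FSP1-Cre;NT3 as numerator, 3 tumors each) and perineal over trunk tumors (right, 2 against 4). Bars show 1 standard error, derived from the F statistic of edgeR's test. The bars of Tyrp1 and Dct, from 1.90 to 2.15 long on each side, are the widest, and no gene passed the threshold.

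Of 13 other melanosome and pigment genes, 7 had a higher mean RPKM than Mlana, the highest melanocyte gene, and the other 6 had from 0.0189 (Gpr143) to 2.90 (Myo5a, the melanosome motor). The most abundant were Rab32 and Rab38, small GTPases that deliver cargo to melanosomes and related organelles, with 78.4 ± 19.6 and 64.0 ± 18.6 RPKM (SD, n = 6 tumors). Rab27a, which tethers mature melanosomes for transport and also acts in secretion, had 38.9 ± 8.60 RPKM. These genes serve other organelles too, and they were lowest in tumor 36, the second highest for Tyrp1 and Dct. Rab32, for example, had 241, 239 and 244 CPM in tumors 13, 18 and 25, and 181, 203 and 104 CPM in tumors 27, 29 and 36. Of the 11 genes of this list tested between the lines, 0 were called in either direction and 0 had an unadjusted p under 0.05, by DESeq2 0 were called, and their median log2 fold change was -0.47. Of 12 tested between the sites, 0 were called by either tool and 3 had an unadjusted edgeR p under 0.05, 1 (Myo5a) with a higher and 2 (Rab32 and Rab38) with a lower estimate. Over all genes tested, 10.5% had such a p. DESeq2 gave no p for Trpm1 and Slc45a2 between the sites, and no adjusted p for Oca2 in either comparison. The median log2 fold change of the list between the sites was -0.41, and Rab32 had -0.71 (SE 0.28, edgeR adjusted p = 0.451).

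Further genes of that list are singled out after their values were seen. Trpm1, an ion channel gene activated by Mitf, had 0.166, 1.95 and 0.225 CPM in tumors 13, 18 and 25, and 0.215, 0.180 and 0.904 CPM in tumors 27, 29 and 36. Slc45a2, a melanosome transporter, had 0.0828, 1.05 and 0 CPM in tumors 13, 18 and 25, and 0.0614, 0.0769 and 0.561 CPM in tumors 27, 29 and 36. Both were highest in tumor 18 and next in tumor 36, the order seen for Tyrp1 and Dct. Slc24a5 was also highest in tumor 18 but lowest in tumor 36. It had 1.61, 2.78 and 1.24 CPM in tumors 13, 18 and 25, and 1.57, 1.38 and 1.12 CPM in tumors 27, 29 and 36. Oca2, which regulates melanosome pH, did not exceed 0.273 CPM, and Gpr143, a receptor of the melanosome membrane, did not exceed 0.104 CPM in any tumor.

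**Figure D4:**
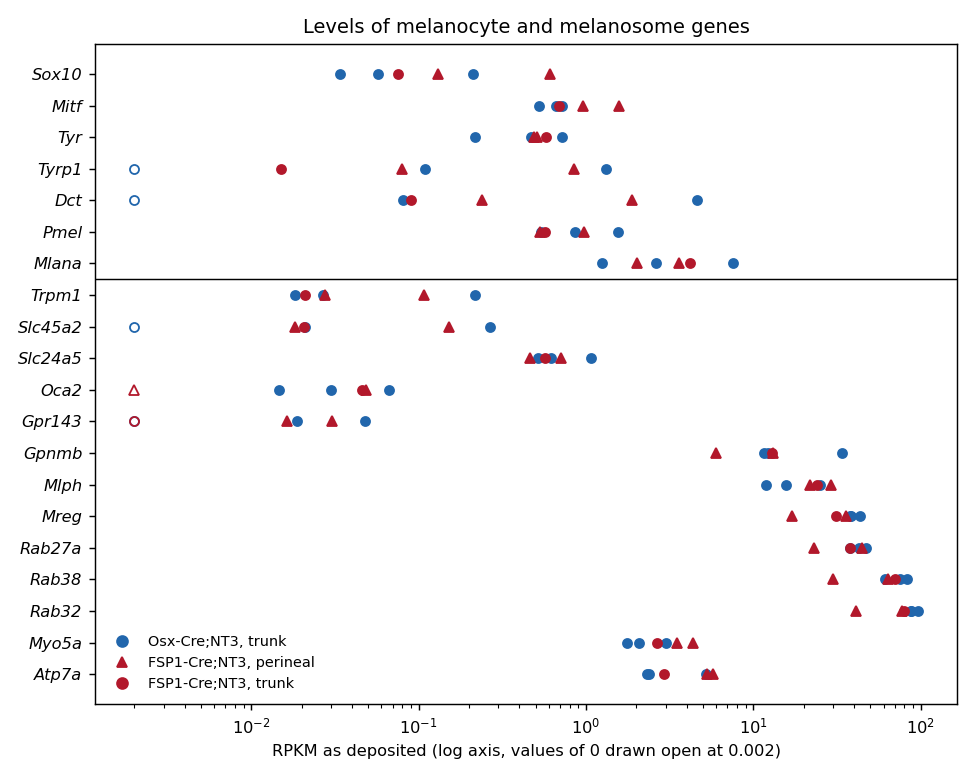
Deposited RPKM (x axis, log scale) of the melanocyte genes (above the line) and of the melanosome genes (below it) in each tumor, with color and shape by line and site, and values of 0 drawn as open symbols at 0.002, where equal points overlie each other. Rab32, Rab38 and Rab27a lie from 23.0 to 96.7 RPKM, and no melanocyte gene exceeds 7.51 RPKM.

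The receptors and ligands of melanocytes differed among themselves in pattern. Among 12 receptors and regulators, Met, the receptor of hepatocyte growth factor, had 16.7 ± 4.50 RPKM (SD, n = 6 tumors), the transcription factor Sox9 had 12.7 ± 4.91 and Tfap2a had 6.05 ± 2.67. Between the lines edgeR called 0 of the 12 and DESeq2 called 1, against 2.56% of all genes tested. At an unadjusted edgeR p under 0.05 were 3 (Kit, Irf4 and Zeb2), against 10.8% of all genes, with a higher estimate in FSP1-Cre;NT3. Between the sites edgeR called 0 and DESeq2 called Kit, Irf4 and Zeb2, against 3.56% of all genes tested. At an unadjusted edgeR p under 0.05 were 4 (the same 3 and Sox5), against 10.5% of all genes. The gene DESeq2 called between the lines was Kit, the receptor on which melanocytes and mast cells depend, named here after its values were seen. Kit had 7.99, 10.5 and 10.8 CPM in Osx-Cre;NT3 tumors 13, 18 and 25, and 31.9, 18.7 and 29.0 CPM in FSP1-Cre;NT3 tumors 27, 29 and 36. The lines did not overlap, with a log2 fold change of 1.45 (SE 0.28, edgeR adjusted p = 0.425, DESeq2 adjusted p = 0.000799). Mc1r, the melanocortin receptor, also named after its values were seen, had 0.331, 2.1 and 0.282 CPM in tumors 13, 18 and 25 and from 0.491 to 0.623 CPM in the FSP1-Cre;NT3 tumors. It was highest in tumor 18. Tumor 36 was next but close to the other FSP1-Cre;NT3 tumors, unlike for Tyrp1 and Dct.

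Of the 8 genes for factors that skin supplies to melanocytes, Atrn, an accessory receptor of agouti signaling, had 5.51 ± 2.18 RPKM (SD, n = 6 tumors). Kitl, the ligand of Kit, had 4.30 ± 3.24 RPKM and Edn1, an endothelin, 1.97 ± 0.790. Kitl had 12.0, 19.4 and 13.8 CPM in tumors 13, 18 and 25, and 35.5, 23.3 and 68.7 CPM in tumors 27, 29 and 36. Its lines did not overlap, with a log2 fold change of 1.5 (SE 0.43, edgeR adjusted p = 0.458, DESeq2 adjusted p = 0.0487). It was the 1 gene of the 8 higher in FSP1-Cre;NT3 without overlap, as were 9.02% of all genes tested. Of the 8 genes, edgeR called 0 between lines or sites, and Kitl was the 1 gene with an unadjusted p under 0.05 and the 1 that DESeq2 called, in both comparisons. Over all genes tested, 10.8% between the lines and 10.5% between the sites had an unadjusted edgeR p under 0.05. DESeq2 called 2.56% and 3.56% of them.

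The family partners of Mitf, which bind the same DNA element, were more abundant than Mitf itself. Per length, Tfe3 had 12.0 ± 2.79, Tfeb 4.06 ± 0.733 and Tfec 2.92 ± 1.17 RPKM (SD, n = 6 tumors), against 0.857 for Mitf. None of the 3 was called between the lines or sites by edgeR or DESeq2, with 0 at an unadjusted p under 0.05.

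Because Mitf is also used by mast cells and macrophages, their markers are given beside it. The 9 mast cell genes, led by Mcpt4 (39.1 ± 33.2 RPKM), Cpa3 (32.0 ± 27.4) and Cma1 (27.1 ± 24.0), summed to from 14.3 to 86.2 CPM in Osx-Cre;NT3 and from 298 to 381 CPM in FSP1-Cre;NT3 tumors. All 9 had a higher estimate in FSP1-Cre;NT3 at an unadjusted p under 0.05 (10.8% of all genes tested, in either direction), edgeR called 0 and DESeq2 6 (2.56% of all genes), and Ms4a2 was at 0 in tumor 25. The lines did not overlap in that sum, whereas for Mitf they did. By site, the sum was 381 and 352 CPM in the perineal tumors and at most 298 CPM in the trunk tumors, which did not overlap, as for Mitf. Between the sites 6 of the 9 genes were higher without overlap, 1 had an unadjusted edgeR p under 0.05, edgeR called 0 and DESeq2 1 (Hdc). The 9 macrophage and osteoclast genes, led by Lyz2 (822 ± 416 RPKM), C1qa (220 ± 84.8) and Ctsk (72.5 ± 28.4), summed to from 1410 to 3262 CPM in Osx-Cre;NT3 and from 1483 to 1900 CPM in FSP1-Cre;NT3 tumors. None was at 0 in any tumor, and edgeR called 0 of them between the lines, with 3 at an unadjusted p under 0.05 (Mrc1 and Cd163 with a higher, Lyz2 with a lower estimate in FSP1-Cre;NT3) and 1 (Mrc1) called by DESeq2. Between the sites 3 were higher and 1 lower without overlap, edgeR called 0, 2 (Mrc1 and Cd163) had an unadjusted p under 0.05, and DESeq2 called the same 2. Over all genes tested between the sites, 10.2% were higher and 9.44% lower without overlap. Of them, 10.5% had an unadjusted edgeR p under 0.05 and DESeq2 called 3.56%. The part of either cell type in the level of Mitf was not tested.

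Sox10 is shared with Schwann cells and glands. Of 14 Schwann cell and neural crest genes, Ngfr (15.9 ± 7.79 RPKM), Mbp (11.7 ± 3.80) and L1cam (1.71 ± 1.92) were the most abundant, and the list summed to from 120 to 261 CPM in Osx-Cre;NT3 and from 179 to 227 CPM in FSP1-Cre;NT3 tumors. Of the 12 genes of the list tested between the lines, edgeR called 0 and DESeq2 called 1 (Egr2), against 2.56% of all genes tested. An unadjusted edgeR p under 0.05 was found for 7, against 10.8% of all genes, all with a higher estimate in FSP1-Cre;NT3. Between the sites, 7 of the 14 were higher in both perineal tumors without overlap, as were 10.2% of all genes tested. Of the 13 tested, edgeR called 0 and DESeq2 called 2, against 3.56% of all genes. The 5 with an unadjusted p under 0.05, against 10.5% of all genes, had a higher estimate in perineal tumors. Sox2 had no count in 4 of the 6 tumors, and Pmp2 none in tumor 25. The 2 genes for S100 antigens, stained for in both melanoma and nerve, were unequal, S100a1 having 48.1 ± 25.3 RPKM and S100b 0.367 ± 0.342. These are RNA levels, whereas the study's S100 protein stain was negative apart from a few cells. S100b had 0.124, 1.44 and 0.169 CPM in tumors 13, 18 and 25, and 0.307, 0.718 and 1.84 CPM in tumors 27, 29 and 36. Tumors 36 and 18 were again the highest, and for both S100 genes edgeR and DESeq2 called 0 between lines or sites, with 0 at an unadjusted p under 0.05.

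The 9 gland luminal genes, led by Krt8 (292 ± 351 RPKM), Epcam (131 ± 72.2) and Krt18 (125 ± 61.8), summed to 4792 CPM in tumor 36 and to from 673 to 1323 CPM in the others. The 6 myoepithelial genes, led by Tagln (80.9 ± 121 RPKM), Acta2 (64.3 ± 79.3) and Myh11 (31.8 ± 28.8), summed to 2311 CPM in tumor 36 and to from 240 to 547 CPM in the others. Tumor 36 was thus the highest for Sox10 and for both lists. Between the sites edgeR called 0 of either list, with 4 of 9 and 5 of 6 at an unadjusted p under 0.05 and 2 of each called by DESeq2. Over all genes tested, 10.5% had such a p and DESeq2 called 3.56%. No gene of the 2 lists was at 0 in any tumor, and their part in the level of Sox10 was not tested.

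Pigment cells in mouse skin reside mainly in hair follicles, so follicle keratins were compared with Tyrp1 and Dct. The 16 hair follicle genes, led by Krt71 (16.2 ± 23.3 RPKM), Krt25 (10.7 ± 16.6) and Tchh (9.40 ± 10.5), summed to 23.6, 87.6 and 234 CPM in tumors 13, 18 and 25, and 62.3, 32.5 and 670 CPM in tumors 27, 29 and 36. All 16 had a higher estimate in FSP1-Cre;NT3 and in perineal tumors, with 0 at an unadjusted p under 0.05 and 0 called by edgeR or DESeq2. Over all genes tested, 8385 of 16415 had a higher estimate in FSP1-Cre;NT3 and 8231 of 16971 in perineal tumors. Tumor 36 was the highest and tumor 13 the lowest, and in tumor 13 the hair keratin Krt31 was at 0. Tumor 25 had the second highest sum of follicle genes but only 0.225 CPM of Dct, so the order of the tumors was not that of Dct. The 7 basal keratinocyte genes summed to from 10131 to 14712 CPM in Osx-Cre;NT3 and from 5908 to 13387 CPM in FSP1-Cre;NT3 tumors, with 0 called by edgeR or DESeq2 in either comparison and 0 at an unadjusted p under 0.05. By RPKM, Krt5 was 68.5 times the sum of the 7 melanocyte genes in tumor 18 and 113 times in tumor 36, and from 282 to 635 times in the others. The part of skin left on a tumor in these levels was not tested.

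**Figure D5:**
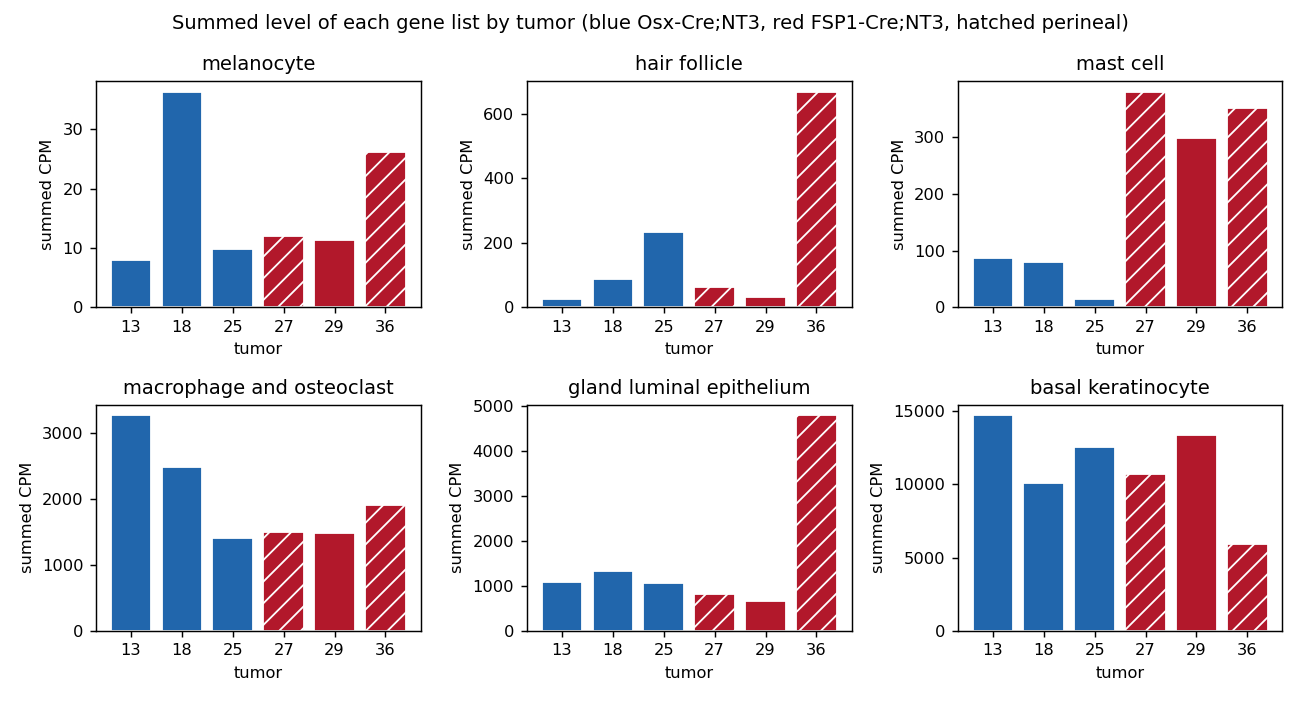
Summed CPM (y axis, linear from 0, its own scale for each list) of the melanocyte genes and of 5 marker lists in the 6 tumors (x axis), in blue for Osx-Cre;NT3, red for FSP1-Cre;NT3 and hatched for perineal tumors. Tumors 18 and 36 are highest for the melanocyte genes at 36.3 and 26.1 CPM, tumors 36 and 25 for the hair follicle genes, and all 3 FSP1-Cre;NT3 tumors for the mast cell genes.

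The pattern of each melanocyte gene over the 6 tumors was compared with that of 16408 other genes, by the mean absolute difference of log2 CPM after each gene was centered on its own mean. This was done for the 5 genes with a count in every tumor, and the 3 most alike genes are named without reading a relation into them, since 6 points match many genes closely. For Mitf these were Abcd2 (0.0593), Prkd3 and 1700019G17Rik. They were G730013B05Rik (0.0749), Myh13 and Mylk2 for Tyr, Cdh9 (0.121), Klrb1a and Gm10790 for Mlana, Nusap1 (0.132), Gm11818 and Lrr1 for Pmel, and Tgtp1 (0.148), Armc3 and Gbp2 for Sox10. No gene of the marker lists was among them. Between Tyrp1 and Dct the difference was 0.759, smaller than that of either from any other melanocyte gene, which ranged from 1.5 to 2.38.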

How the data were processed

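RNA-seq of 6 tumors was analysed, grouped by line and by site from the sample labels. The authors deposited raw counts per gene, without normalization, and RPKM values. The study's methods give trimming, alignment by HISAT2 (Galaxy release 2.1.0) against mm10 and counting by featureCounts, while the submitters' processing notes name bcl2fastq, TopHat2 2.0.6 and HTSeq, so the counting program is uncertain. The gene annotation and strand setting are not given in the sources used here, and overlapping genes may share reads. The table has 23358 entries, 43 with a repeated symbol. Total counts ranged from 51824408 to 163297772, and Rn45s, a ribosomal RNA precursor, took from 5.28% to 13.3% of them. Depth makes counting error small above a few CPM, so there the number of tumors limits the precision. At lower levels counting error adds to it, with an interval of 0.0307 to 0.288 CPM for Sox10 in tumor 25, for example.

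Counts were filtered with filterByExpr, scaled by TMM and tested with glmQLFit and glmQLFTest of edgeR 4.0.16 in R 4.3.3, without covariates, with Benjamini-Hochberg adjustment over all genes tested and a threshold of 0.05. DESeq2 1.42.0, other scalings and filters, covariates, single lines or sites and leaving out each tumor were alternatives. For some genes of the lists DESeq2 gave no p or no adjusted p, so it could not call them. Leaving out tumors 18 and 36 together was an alternative chosen once the data were known. The tests were checked on simulated data. Each SE given with an edgeR estimate is the absolute log2 fold change divided by the square root of the F statistic of its test. Likeness used log2 CPM with a prior count of 2.

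The genes, the 15 lists and the tests were chosen with earlier results of these data known. Of the list genes, 135 were in the table or matched there by an older symbol (6 genes), and Asip was not used here. A Schwann cell gene is counted with its list but not reported singly. Named were all melanocyte genes, the 3 genes of each list with the highest mean RPKM, the 3 genes most alike in pattern, and genes said in the text to be chosen after their values were seen. Sequences are RefSeq's, on GRCm38.p6. Each tumor came from a separate animal, so p-values measure the spread between mice.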

Additional observations from a re-analysis of the deposited data

Results flagged for a closer look

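In a search over 29 sets of tumor values, the 7 melanocyte genes and the summed lists, 3 had 1 tumor far from the others by Dixon's ratio, the gap to the nearest tumor divided by the whole range. Chance flags about 1 in 20 such sets. The family partners of Mitf (Tfeb, Tfe3 and Tfec) were lowest in tumor 18, at 51.7 CPM against 68.2 to 77.8 CPM in the others, with a ratio of 0.678 on the log2 scale. The gland luminal genes were highest in tumor 36, with a ratio of 0.656, and the myoepithelial genes also in tumor 36, with a ratio of 0.637. Among the 14 sets made of single melanocyte genes, over all tumors or the trunk tumors, 0 stood apart in this way. For Tyrp1 and Dct the test is blunt, since 2 tumors were high together.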

How the results depend on the processing

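No alternative called any of the 7 melanocyte genes between lines or sites, with adjusted p-values from 0.239 to 1.00 over all fits. Over all genes, DESeq2 called 420 between the lines (336 without tumors 18 and 36) and 605 between the sites, where edgeR called 0. Leaving out 1 tumor at a time, edgeR's calls between the lines stayed at 0, and those between the sites ranged from 0 to 567, with 567 without tumor 27, which leaves 1 perineal tumor assumed to vary like the trunk tumors, and 2 without tumor 25. Other scalings and count filters reversed no melanocyte gene. Between the lines, the log2 fold change reversed with site as covariate and in trunk tumors alone for Sox10 (-0.51 in both) and Mlana (0.065 and 0.054), and without tumors 18 and 36 for Dct (1.84, DESeq2 1.91) and Mlana (0.89, DESeq2 0.88). Between the sites it reversed with line as covariate and in FSP1-Cre;NT3 tumors alone for Pmel (0.34 and 0.33) and Dct (3.51 and 3.50), and without tumors 18 and 36 for Tyr (0.067), Dct (1.88) and Mlana (0.25). The cause was not tested. Leaving out 1 tumor at a time, the line estimates ranged from -3.54 to 2.46 for Tyrp1, -0.27 to 0.55 for Tyr, -3.43 to 4.10 for Dct, -0.16 to 2.50 for Sox10 and -0.84 to 0.64 for Mlana, and the site estimates from -2.40 to 3.43 for Tyrp1, -0.34 to 0.16 for Tyr, -0.91 to 0.12 for Pmel and -2.54 to 4.14 for Dct. Those of Mitf stayed above 0, from 0.25 to 0.85 between lines and 0.39 to 1.19 between sites. A filter of at least 10 counts in every tumor left no value for Tyrp1, Dct and Sox10. No paired analysis was possible because the tumors carry mouse numbers that no 2 groups share. With 1 high tumor in each line, differences in Tyrp1 and Dct between lines were not detectable with 3 tumors a group.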

Other observations

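The genes that route cargo to melanosomes and other lysosome-related organelles were present in all 6 tumors. The 16 BLOC, HPS and AP-3 genes, led by Bloc1s1 with 71.5 ± 33.1, Bloc1s2 with 61.9 ± 17.0 and Dtnbp1 with 23.7 ± 4.44 RPKM (SD, n = 6 tumors), summed to from 557 to 668 CPM. Of these 16, 0 were called by edgeR or DESeq2 between the lines or the sites, and 0 had an unadjusted p under 0.05. The 4 adipocyte genes, led by Fabp4 (29.0 ± 47.1 RPKM), Adipoq (1.71 ± 2.36) and Cidec (1.57 ± 2.47), summed to 34.3 and 123 CPM in perineal tumors 27 and 36 and to from 2.32 to 12.5 CPM in the trunk tumors. All 4 were higher in both perineal tumors than in every trunk tumor, as were 10.2% of all genes tested. Between the sites edgeR called 0 of them, with 4 at an unadjusted p under 0.05, and DESeq2 called 4 (3.56% of all genes), and Fabp4 had a log2 fold change of 3.84 (SE 0.84, edgeR adjusted p = 0.263).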
